A study of Mus musculus with 8 samples.

Results

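Mucins and the secreted proteins made beside them in the conducting airways were followed in untreated lungs with and without an Scgb3a2 transgene, through the genes Muc1, Muc4, Muc5ac, Muc5b, Agr2, Reg3g, Tff2 and Spdef. These 8 genes were taken by name, and every probe that carried one of their symbols was used, which gave 15 of the 41174 probes on the array for 8 of its 20920 gene symbols. Lungs came from 4 wild-type (WT1 to WT4) and 4 transgenic (TG1 to TG4) C57BL/6 males of 8 to 10 weeks, all untreated, and the methods give their age as approximately 8 weeks. The transgene was a mouse Scgb3a2 cDNA behind the human SP-C promoter, which is active in alveolar type II cells, with a viral intron and polyadenylation signal, and the mice came from a single founder line. On each of the 8 arrays RNA of a whole lung was labeled with Cy5 and a pool of equal amounts of RNA from each sample, as the methods describe it, with Cy3, and dyes were not swapped. A value below is the log2 ratio of a lung to that pool, so 1 unit is a doubling, and it compares lungs for 1 gene but says nothing of the level of that gene beside another. Some genes lay on 1 side of the pool in all 8 lungs. Muc6 was above it (means 1.42 in wild-type and 1.21 in transgenic lungs) and Clca2 below it (-0.87 and -0.83). A ratio of 0 is thus not the average of the 8 lungs, and the reason was not tested.

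Mucins are large glycoproteins whose serine- and threonine-rich stretches carry dense O-linked sugars. Muc5ac and Muc5b are the gel-forming mucins of airway mucus. Muc5b is made in club cells and submucosal glands of the healthy mouse airway, where it is needed for mucociliary clearance, and Muc5ac is the mucin of goblet cells that appear under allergic stimuli. Muc1 and Muc4 stay anchored in the apical membrane, Muc1 on alveolar type II and airway cells and Muc4 mostly on ciliated and other airway cells. Spdef is a transcription factor of goblet cell differentiation, Agr2 a disulfide isomerase of the endoplasmic reticulum needed for mucin folding, Tff2 a small trefoil peptide secreted with mucus, and Reg3g a C-type lectin that kills Gram-positive bacteria.

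Promoters of 3 genes are shown because these stand for the patterns described below, Reg3g for the genes that varied most between lungs, Muc4 for a membrane mucin that varied partly with them, and Muc1 for the membrane mucin that did not. The stretches are the 250 bases before the start of the gene in RefSeq on GRCm38.p6, chr6:78468875-78469124 on the minus strand for Reg3g, chr16:32735636-32735885 on the plus strand for Muc4 and chr3:89228806-89229055 on the plus strand for Muc1. Capitals mark the letters TATAAA on either strand, the core of the TATA box.
Reg3g: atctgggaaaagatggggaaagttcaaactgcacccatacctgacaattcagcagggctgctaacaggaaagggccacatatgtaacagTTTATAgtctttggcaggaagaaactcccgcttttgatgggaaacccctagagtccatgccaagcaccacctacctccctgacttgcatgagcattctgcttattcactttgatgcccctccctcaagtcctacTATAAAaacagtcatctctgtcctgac
Muc4: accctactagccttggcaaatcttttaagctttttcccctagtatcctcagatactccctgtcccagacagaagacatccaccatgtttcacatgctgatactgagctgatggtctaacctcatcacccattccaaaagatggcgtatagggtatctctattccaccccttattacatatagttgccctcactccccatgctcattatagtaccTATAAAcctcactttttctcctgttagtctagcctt
Muc1: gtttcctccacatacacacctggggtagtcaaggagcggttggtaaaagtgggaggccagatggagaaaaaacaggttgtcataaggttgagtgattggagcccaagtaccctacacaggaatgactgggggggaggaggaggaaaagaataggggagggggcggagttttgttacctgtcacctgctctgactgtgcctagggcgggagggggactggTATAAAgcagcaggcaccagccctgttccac
The TATAAA match began 27 bases before the start in Reg3g, 36 in Muc4 and 31 in Muc1, and Reg3g held another, on the opposite strand, at 161 bases. These letters stood in 12.4% of 32851 mouse promoter stretches of this length, and in neither Agr2 nor Spdef, the other genes with an entry. A forkhead motif, TGTTTAC, was found in 3.17% of all promoters and a STAT motif, TTCNNNGAA, in 7.02%, both strands read, and neither occurred in any of the 5. GGAT, the core of the Spdef motif, was in 74.1% of all promoters, in Agr2 at 2 positions, in Muc4 at 2 and in Spdef at 5, and not in Muc1 or Reg3g. Muc5ac and Muc5b are neighbours on chromosome 7, next to the intestinal mucin gene Muc2, and Tff2 lies between Tff3 and Tff1 on chromosome 17.

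The arrays were alike in depth, with a median Cy5 signal of 204 to 277.5 over a local background of 55.5 to 59, and 32271 to 34720 probes detected well above background in Cy5. The ratio of Scgb3a2 averaged -0.09 ± 0.51 without and 0.79 ± 0.33 with the transgene (SD, 4 lungs each). The difference was 0.88, or 1.84-fold (SE 0.24, limma unadjusted p = 0.0033, adjusted p = 1, exact permutation p = 0.0571). Scgb3a2 was thus called, at over 1.5-fold with an unadjusted p under 0.05. The transgenic lungs carried more of it on average, while 1 wild-type lung overlapped them. The markers of lung epithelium were present, since 9 of 9 club cell, 14 of 14 ciliated cell and 10 of 10 type II cell markers with a probe were well above background on all 8 arrays. Among the transgenic lungs TG1 stood apart in markers of other cell types too, with a mean type I cell marker ratio of -0.74 against 0.11 to 0.47 in the other 7 lungs and the highest leukocyte marker mean, 0.15 against -0.64 to -0.14. In that list the B cell gene Ms4a1 was called, higher in transgenic lungs by 0.63 (SE 0.25, limma unadjusted p = 0.0298, adjusted p = 1, exact permutation p = 0.114).

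Of the 15 probes, 13 had enough signal and values to be tested, and none of them differed between genotypes by the threshold of the methods. That threshold, over 1.5-fold with an unadjusted p under 0.05, was passed by 0 of the 13, where limma called 0.126% of all 32653 probes higher and 0.104% lower in transgenic lungs, and the methods' t-test likewise called 0 of the 13. No probe of the 13 had an unadjusted p under 0.05 (2.09% of all probes did), and the genotypes overlapped for each of the 13 (1.97% of all probes did not overlap). Each of the 13 had a limma adjusted p of 1, as 0 of 32653 probes fell under 0.05. Direction was mixed, with 7 probes lower and 6 higher in transgenic lungs and a median log2 difference of -0.10. In whole lung RNA fewer cells of a type and less RNA per cell cannot be told apart.

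Muc5b, the gel-forming mucin of the resting airway, showed the widest lung-to-lung range of the 4 mucins. Its ratios were 0.87, 0.64, 0.96 and 0.31 in WT1 to WT4 and 1.44, -0.54, 0.35 and -0.50 in TG1 to TG4. The wild-type lungs stayed close together, while the transgenic lungs held both the highest value and the lowest ones. The mean was 0.70 ± 0.29 in wild-type and 0.19 ± 0.93 in transgenic lungs (SD, n = 4 each), a difference of -0.51 (SE 0.37, 95% interval -1.31 to 0.30, limma unadjusted p = 0.193, exact permutation p = 0.314). Leaving out TG1 changed the call, since the difference was then -0.93 (limma unadjusted p = 0.0018) and past the threshold. It was -0.26 without TG2 (limma unadjusted p = 0.484) and -0.28 without TG4 (limma unadjusted p = 0.463), so the size of the difference rested on those lungs as well. From the lowest to the highest lung Muc5b spanned 1.99 units, or 3.96-fold.

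Muc5ac, the mucin of goblet cells, moved little apart from TG1. Its brighter probe gave 0.28, 0.13, -0.08 and 0.12 in the wild-type lungs and 0.90, 0.05, -0.06 and -0.29 in the transgenic lungs. TG1 was the highest of the 8, and the other 7 lay between -0.29 and 0.28. The means were 0.11 ± 0.15 and 0.15 ± 0.52 (SD, n = 4 each), a difference of 0.04 (SE 0.22, 95% interval -0.43 to 0.51, limma unadjusted p = 0.85, exact permutation p = 0.943). Another probe for the same transcript gave -0.19 (SE 0.12, limma unadjusted p = 0.152, exact permutation p = 0.229), with TG1 at 0.30 and WT1 highest at 0.60. The probes of Muc5ac disagreed on the order of the lungs (r = 0.41 over 8 lungs). TG1 was the highest of the 8 by only the brighter probe. By the other it was the highest transgenic lung but below WT1 and WT2.

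**Figure D1:**
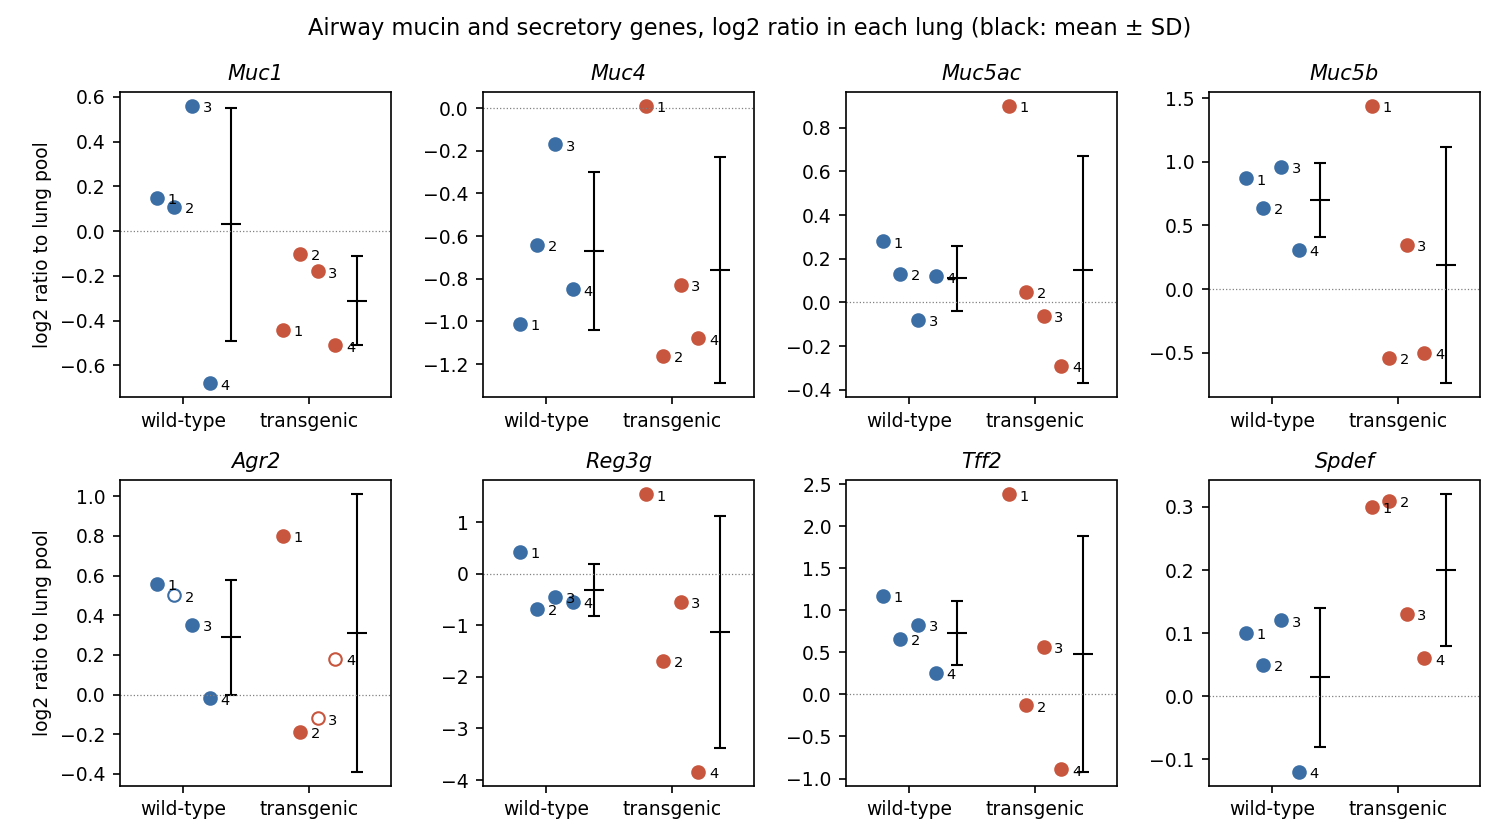
Log2 ratio to the lung pool (vertical axis, scaled per panel) of the brightest probe of each gene in 4 wild-type (blue) and 4 transgenic (red) lungs, numbered by replicate, with black bars for the mean ± SD of the filled points; open circles in the Agr2 panel are flagged spots left out of the mean. TG1 was the highest lung for 6 of the 8 genes, Reg3g ran from 1.54 down to -3.84, and Spdef stayed between -0.12 and 0.31.

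Muc1, the membrane mucin shared by type II and airway cells, was lower in most transgenic lungs by its brightest probe. The brightest probe read 0.15, 0.11, 0.56 and -0.68 in WT1 to WT4 and -0.44, -0.10, -0.18 and -0.51 in TG1 to TG4. Except for WT4, the lowest lung of all, every wild-type lung was above every transgenic lung. The mean was 0.03 ± 0.52 in wild-type and -0.31 ± 0.20 in transgenic lungs (SD, n = 4 each), a difference of -0.34 (SE 0.22, 95% interval -0.82 to 0.14, limma unadjusted p = 0.151, exact permutation p = 0.229). Without WT4 the difference was -0.58 (limma unadjusted p = 0.00355), which is still under 1.5-fold, and without WT3 it was -0.16 (limma unadjusted p = 0.433). A further Muc1 probe, flagged in WT3, gave -0.18 (SE 0.20, limma unadjusted p = 0.396, exact permutation p = 0.514). It ordered the lungs otherwise (r = 0.63 with the brightest probe over 7 lungs), with TG4 at 0.40, below only WT2 at 0.62.

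Muc4, the other membrane mucin, lay below the pool in every lung but TG1. Its brightest probe gave -1.01, -0.64, -0.17 and -0.85 in the wild-type and 0.01, -1.16, -0.83 and -1.08 in the transgenic lungs. TG1 and WT3 were the highest of their genotypes and the other lungs lay close together between -1.16 and -0.64. The difference was -0.10 (SE 0.25, 95% interval -0.65 to 0.45, limma unadjusted p = 0.703, exact permutation p = 0.714). Muc4 had 6 probes, and the other 3 tested ones gave differences of 0.07, 0.01 and 0.07, each within its SE. The remaining pair was dim, with 1 probe detected on no wild-type array and on 1 transgenic array and the other on 2 wild-type arrays and 1 transgenic array. TG1 was the highest lung for each of the 4 tested probes, at 0.01, 0.33, 0.29 and -0.14.

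Reg3g, the antibacterial lectin, varied the most of the 8 genes. It read 0.43, -0.68, -0.45 and -0.54 in WT1 to WT4 and 1.54, -1.69, -0.54 and -3.84 in TG1 to TG4. WT2, WT3, WT4 and TG3 were almost level, TG1 was more than 1 unit above the highest wild-type lung, and TG4 was far below all others. In raw Cy5 signal this was 6559 in TG1 and 324 in TG4, both well above background. The means, -0.31 ± 0.50 in wild-type and -1.13 ± 2.25 in transgenic lungs (SD, n = 4 each), differed by -0.82 (SE 0.84, 95% interval -2.68 to 1.03, limma unadjusted p = 0.351, exact permutation p = 0.571). The sign and call depended on single lungs, since the difference was -1.71 (limma unadjusted p = 0.0159, past the threshold) without TG1 and 0.08 without TG4. The whole range was 5.39 units, a 41.8-fold difference between lungs of the same genotype.

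Tff2, the trefoil peptide of mucus, followed the same order of transgenic lungs as Reg3g. Its ratios were 1.17, 0.66, 0.83 and 0.26 in the wild-type and 2.38, -0.13, 0.57 and -0.89 in the transgenic lungs. Transgenic lungs again lay on both sides of all wild-type lungs. Means of 0.73 ± 0.38 and 0.48 ± 1.40 (SD, n = 4 each) gave a difference of -0.25 (SE 0.54, 95% interval -1.42 to 0.93, limma unadjusted p = 0.655, exact permutation p = 0.771), which was -0.88 (limma unadjusted p = 0.0142, past the threshold) without TG1 and 0.21 without TG4. Tff2 spanned 3.27 units, or 9.66-fold.

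Agr2, the isomerase that mucins need to fold, was flagged as an outlier spot in WT2, TG3 and TG4, so its fit dropped 3 of 8 lungs. The remaining values were 0.56, 0.35 and -0.02 in WT1, WT3 and WT4 and 0.80 and -0.19 in TG1 and TG2. These gave a difference of 0.01 (SE 0.29, 95% interval -0.65 to 0.68, limma unadjusted p = 0.961). With the flagged spots kept the flagged lungs read 0.50, -0.12 and 0.18 and the difference was -0.17 (SE 0.21, limma unadjusted p = 0.421), so the direction of Agr2 was not settled. TG1 was again the highest lung in either case.

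Spdef, a transcription factor of goblet cell differentiation, varied the least of the 8 genes by their brightest probes. Its probe was also the dimmest of these, with a raw Cy5 signal of 195.5 to 269. The part of the low signal in its narrow range was not tested. The ratios of Spdef were 0.10, 0.05, 0.12 and -0.12 in the wild-type and 0.30, 0.31, 0.13 and 0.06 in the transgenic lungs. The genotypes overlapped only where WT1 and WT3 lay above TG4, and the transgenic lung was the higher on 3 of 4 slides. The means were 0.03 ± 0.11 and 0.20 ± 0.12 (SD, n = 4 each), a difference of 0.16 (SE 0.10, 95% interval -0.06 to 0.39, limma unadjusted p = 0.142, exact permutation p = 0.114). With a normexp offset of 0 the difference was 0.22 (limma unadjusted p = 0.136), and with processed signals 0.26 (limma unadjusted p = 0.0712).

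**Figure D2:**
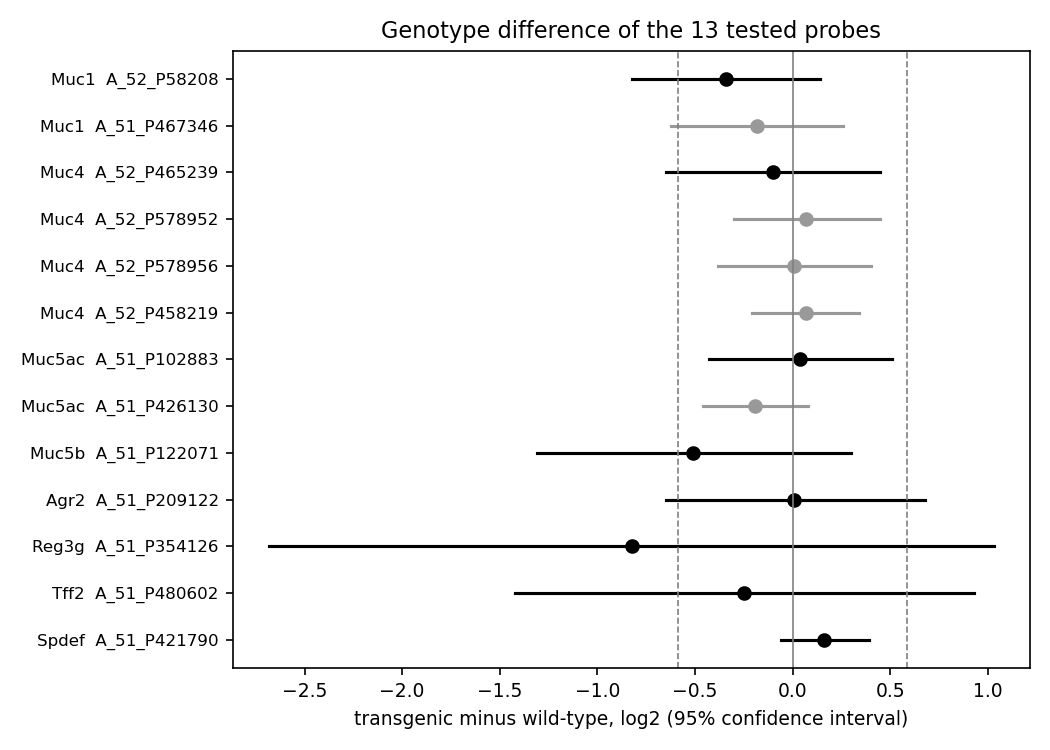
Transgenic minus wild-type log2 difference (horizontal axis) with its 95% interval for the 13 tested probes, black for the brightest probe of each gene and grey for its other probes, with dashed lines at 1.5-fold in each direction. All 13 intervals include 0, and those of Reg3g (-2.68 to 1.03) and Tff2 (-1.42 to 0.93) are the widest.

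Each slide held 1 lung of each genotype, so the genotypes can be compared slide by slide. For Reg3g the transgenic lung differed from its slide partner by -3.40, 1.12, -1.02 and 0.01 on slides 1 to 4, for Tff2 by -1.72, 1.21, -0.79 and 0.31, and for Muc5b by -1.46, 0.57, -1.18 and 0.04. The sign changed between slides for each of these 3 genes, positive on slides 2 and 4. On slide 2, which carried WT1 and TG1, both lungs were the highest of their genotype for Reg3g, Tff2 and Muc5ac. Both extreme transgenic lungs, TG1 and TG4, were scanned on the same day. On that day, with 2 lungs of each genotype, the mean difference was -1.14 for Reg3g, -0.25 for Tff2 and -0.45 for Muc5b, and on the other day it was -0.50, -0.24 and -0.57. Muc1 differed by -0.83 on the former day and by 0.15 on the latter. With the slide as a block the unadjusted p by limma was 0.123 for Muc5b, 0.184 for Reg3g, 0.538 for Tff2 and 0.147 for Muc1, and none of the 8 genes passed the threshold with the slide or the scan day as a block. The part of the slide or the scan in these values was not tested.

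The spread between lungs of the same genotype was large for most of these genes by their brightest probe, beside all tested probes. The within-genotype SD was 1.63 for Reg3g, at the 99.99th percentile of tested probes, 1.03 for Tff2 (99.8th), 0.69 for Muc5b (99.6th), 0.46 for Muc4 (98.1st) and 0.39 for Muc1 (96.3rd). Spdef, at 0.12, was at the 17.5th percentile. Of the 13 probes 7 had an SD above the 95th percentile of all probes and 10 above the median, and their median SD was 0.38. These shares describe the 13 probes, chosen by gene name, and were not tested.

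**Figure D3:**
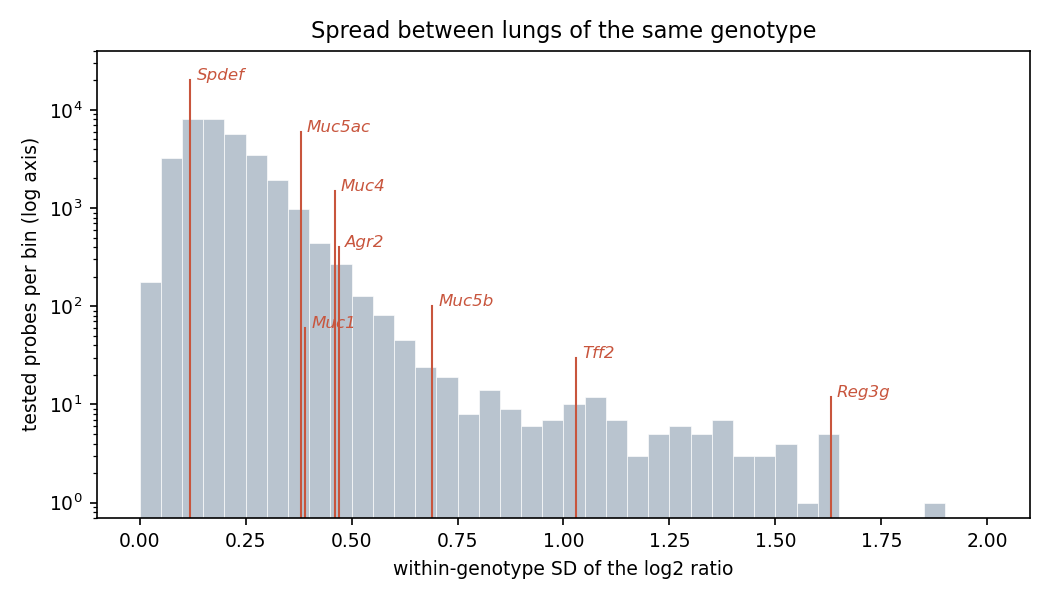
Histogram of the within-genotype SD of the log2 ratio (horizontal axis) over the tested probes (vertical axis, number per bin on a log scale), with red lines at the brightest probe of each gene, the heights of which carry no value. Reg3g (1.63) and Tff2 (1.03) lie in the far tail and Spdef (0.12) in the bulk.

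Several of the genes rose and fell together from lung to lung. Pearson's r over the 8 lungs was computed for the 21 pairs of the 7 genes with a value on every array, with exact permutation p-values adjusted over the 21, and 20 of the 21 were positive. That share was not compared with other genes. The permutation took the 8 lungs as exchangeable, although slide partners were partly alike over all tested probes (correlations of 0.30, 0.32, 0.25 and 0.07 on slides 1 to 4). For Muc5b and Tff2 r was 0.93 (exact permutation p = 0.000397, adjusted 0.00833) and Spearman's rho 0.95 (exact permutation p = 0.00114, adjusted 0.0234), with r = 0.93 when TG2 and TG4, the lungs farthest from the median, were left out. Reg3g and Tff2 gave r = 0.95 (exact permutation p = 0.000942, adjusted 0.0099), rho = 0.93 (p = 0.00223, adjusted 0.0234) and r = 0.91 without TG1 and TG4. Muc5b and Reg3g gave r = 0.89 (exact permutation p = 0.00332, adjusted 0.0233), rho = 0.88 (p = 0.00724, adjusted 0.0507) and r = 0.84 without TG2 and TG4. These genes are a gel-forming mucin, a trefoil peptide and an antibacterial lectin, which shared the order TG1 above TG3 above TG2 or TG4. Muc5ac and Tff2 also passed, with r = 0.89 (exact permutation p = 0.00603, adjusted 0.0316) and rho = 0.69 (p = 0.0694, adjusted 0.243), but r fell to 0.30 without TG1 and TG4, so that relation rested on those lungs. The other 17 pairs did not pass, and 2 pairs passed by rho. With the genotype mean taken from each value r was 0.96 for Muc5b and Tff2, 0.96 for Reg3g and Tff2 and 0.88 for Muc5b and Reg3g. A genotype or a scan day held only 4 lungs, too few for a correlation of its own.

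No pair with Muc1 or Spdef passed the threshold, and some of their values moved with the lungs or the centring used. The r of Muc1 with Tff2 was 0.19 (exact permutation p = 0.669, adjusted 0.729), and that of Spdef with Tff2 0.35 (exact permutation p = 0.394, adjusted 0.69). Spdef, which drives goblet cell genes, had an r with Muc5ac of 0.41 (exact permutation p = 0.302, adjusted 0.576). Its r with Muc5b was 0.07 (exact permutation p = 0.87, adjusted 0.87), but 0.81 without TG2 and TG4. After centring each genotype on its mean, r was 0.57 for Spdef with Tff2, 0.45 for Spdef with Muc5b, 0.71 for Spdef with Muc1 and 0.14 for Muc1 with Tff2, values given as a description. Muc4 lay between, with an r of 0.82 with Muc5b (exact permutation p = 0.016, adjusted 0.0672) and 0.76 with Tff2 (exact permutation p = 0.0255, adjusted 0.0766), both of which missed the threshold.

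**Figure D4:**
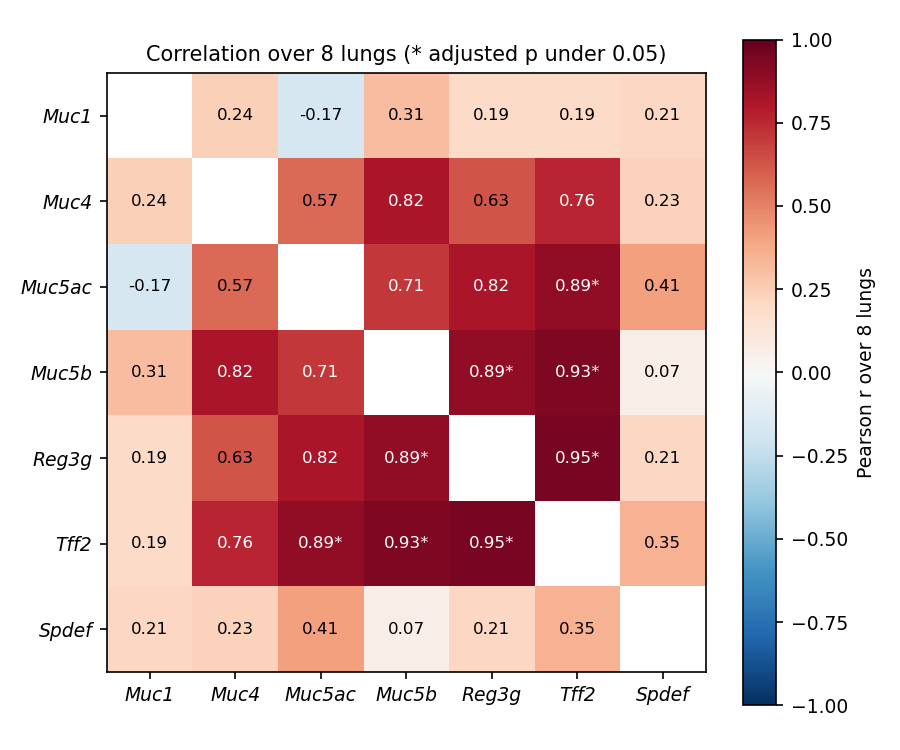
Pearson's r over the 8 lungs for each pair of the 7 genes with a value on every array (red positive, blue negative, colour scale at the right), with a star where the exact permutation p adjusted over 21 pairs is under 0.05. The starred pairs join Tff2 with Muc5b (0.93), Reg3g (0.95) and Muc5ac (0.89), and Muc5b with Reg3g (0.89), while Muc1 and Spdef have no starred pair.

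The genes were next set beside lung means of cell type markers. The comparison was chosen after the values of the genes were seen and covers 63 relations (7 genes with 9 marker lists), with p-values adjusted over the 63. The club cell mean used the 4 markers with a value on every array, Scgb3a1, Cyp2f2, Upk3a and Lypd2, without the transgene's own Scgb3a2. It was 0.84, 0.61, 1.22 and 0.45 in WT1 to WT4 and 1.31, 0.19, 0.56 and 0.13 in TG1 to TG4, with TG1 highest and TG4 and TG2 lowest, an order that for TG4 rested on Scgb3a1. Muc5b followed it with r = 0.95 (exact permutation p = 0.000942, adjusted 0.0266), rho = 0.98 (p = 0.000397, adjusted 0.0125) and r = 0.98 without TG1 and WT3. Tff2 did so with r = 0.89 (exact permutation p = 0.00126, adjusted 0.0266), rho = 0.98 (p = 0.000397, adjusted 0.0125) and r = 0.96 without the same lungs. For Reg3g r was 0.81 (exact permutation p = 0.00858, adjusted 0.0772), past no adjusted threshold. In TG4 Scgb3a1 was at -1.07, the lowest of the 8 lungs, but Cyp2f2 at 1.29 and Scgb1a1 at 1.98, both above most other lungs. The mean of the other 3 markers, an alternative chosen after seeing the data, was 0.67, 0.54, 1.16 and 0.37 in WT1 to WT4 and 1.1, 0.29, 0.53 and 0.53 in TG1 to TG4, so TG4 was no longer among the lowest lungs. With that mean r fell to 0.79 for Muc5b (exact permutation p = 0.0226, adjusted 0.169, rho = 0.95), 0.68 for Tff2 (exact permutation p = 0.0583, adjusted 0.283, rho = 0.86) and 0.52 for Reg3g (exact permutation p = 0.191, adjusted 0.415, rho = 0.76), none past the adjusted threshold, and to 0.65, 0.47 and 0.26 without WT3 and TG1. For Muc4 it was again 0.89 (exact permutation p = 0.0116, adjusted 0.169), and 0.27 without those lungs.

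Muc4 followed the ciliated cell mean of 12 markers (r = 0.93, exact permutation p = 0.00248, adjusted 0.0384), which ran from 0.15 to 0.57 in wild-type and 0.20 to 0.80 in transgenic lungs, and the club cell mean (r = 0.89, exact permutation p = 0.00459, adjusted 0.0482), but without TG1 and WT3 these were 0.52 and 0.53. Muc1, by its brightest probe, followed the type II cell mean of 5 markers (Sftpa1, Sftpd, Abca3, Napsa and Etv5), with r = 0.95 (exact permutation p = 0.000496, adjusted 0.0266), rho = 0.90 (p = 0.00456, adjusted 0.0719) and r = 0.99 without WT3 and TG1. The other Muc1 probe, which ordered the lungs otherwise, was not compared with it. That mean was 0.38, 0.38, 0.97 and -0.09 in the wild-type and -0.24, 0.21, 0.16 and -0.04 in the transgenic lungs. In that mean the genotypes overlapped (exact permutation p = 0.171). The type II list as a whole was lower in transgenic lungs for 10 of 10 markers, Abca3 by only -0.01, with a median of -0.49 (-0.27 without WT3 and also without TG1). Among them 1, the surfactant protein gene Sftpa1, was called (-0.75, SE 0.29, limma unadjusted p = 0.0238, exact permutation p = 0.0857), where 0.104% of all probes were called lower. This list was chosen with earlier results of these data known, so the shares are a description and no test. Muc5ac ran against the type I cell mean of 3 markers (r = -0.95, adjusted exact permutation p = 0.0384), and without TG1 and TG4 r was -0.48. The part of the cell makeup of each lung in these levels was not tested.

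**Figure D5:**
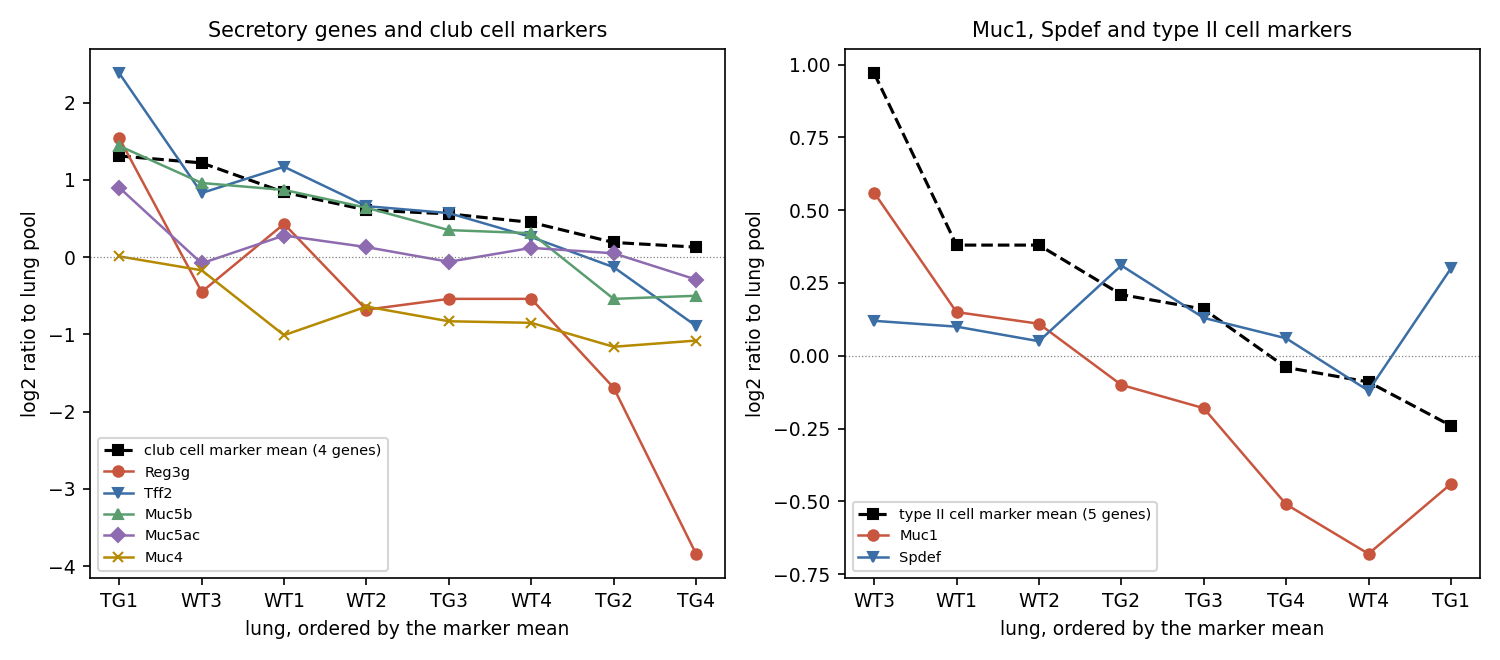
Log2 ratio to the lung pool (vertical axis) of the brightest probe of each gene in each of the 8 lungs (horizontal axis), ordered by the mean of the club cell markers (left) or type II cell markers (right), which are drawn as dashed black lines. Muc5b and Tff2 descend with the club cell mean from TG1 to TG4, Reg3g drops further in TG2 (-1.69) and TG4 (-3.84), and Muc1 descends with the type II cell mean while Spdef does not.

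The genes whose lung-to-lung pattern was most like each of these were found among 29502 tested probes with a value on every array, as a ranking by r over 8 lungs with no test. Nearest to Reg3g were Gm9758, Ltf (lactoferrin, an iron-binding antibacterial protein), Scgb3a1 (a secretoglobin of club and mucous cells), Arfip2 and Mfsd6l, each with r = 0.97. Ltf, at 0.66, -0.44, 0.13 and -0.03 in the wild-type and 0.89, -1.59, -0.48 and -2.69 in the transgenic lungs, and Scgb3a1, at 1.34, 0.85, 1.39 and 0.68 and then 1.95, -0.10, 0.64 and -1.07, had the same lungs at top and bottom as Reg3g and a wide range. Tff2 was most like Oas1d, 4930579J09Rik, Nhlrc3, St8sia6 and Ccdc39, a gene of motile cilia (r = 0.97 for each). Muc5b was most like Acta2 (0.98), Tagap1 (0.98), Mst1 (0.96), 4932415M13Rik (0.96) and Tcp11l1 (0.96), all of which had an SD of 0.21 or less against 0.69 for Muc5b. For Muc5ac the nearest were Zmiz2 (0.99), the neutrophil surface gene Cd177 (0.98), Sec61a1 of the translocon (0.98), Gp2 (0.98) and the neutrophil and epithelial peptidoglycan receptor Pglyrp1 (0.97), and TG1 was the highest lung for each of the 5. For Muc4 they were Syt5, Rab10, Dot1l, Tmem20 and Wdr69, for Muc1 Wbp5, Slc31a1, Fam82a1, Clmn and Pmvk, a kinase of the mevalonate pathway, and for Spdef Ddb2, Plbd1, Hormad1, Pygl and Fbxw4, with r of 0.94 to 0.98.

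No other mucin was called between genotypes. Of 13 mucin genes with a probe, Muc1, Muc4, Muc5ac and Muc5b among them, 10 were tested, of which 3 were higher and 7 lower in transgenic animals (median -0.10). The 6 beyond those 4, Muc2, Muc6, Muc13, Muc16, Muc20 and Mucl1, were higher for 2 and lower for 4, and 0 were called. The gastric gland mucin Muc6 ranged from 0.93 to 2.04 in wild-type and 0.88 to 2.03 in transgenic lungs (-0.21, SE 0.28), with WT3 and TG4 highest, unlike Muc5b or Tff2. The small mucin-like gene Mucl1 was the only mucin with an unadjusted p under 0.05, at -0.17, -0.02, -0.15 and -0.04 in wild-type and 0.10, 0.07, 0.14 and 0.14 in transgenic lungs, which did not overlap (0.21, SE 0.09, limma unadjusted p = 0.0414, adjusted p = 1, exact permutation p = 0.0286, the lowest that 4 lungs against 4 allow). Muc20, the neighbour of Muc4 on chromosome 16, was highest in TG1, at 1.03, against -0.12 to 0.32 in the other lungs. Muc3, Muc15 and Muc19 were well above background on fewer than 4 arrays.

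Among 21 goblet and mucous cell genes, Spdef, Agr2 and Tff2 included, 18 were tested, 12 higher and 6 lower, and 0 were called, with a median of 0.03. Clca3, the calcium-activated chloride channel regulator that marks mouse goblet cells, varied as widely as Reg3g, with an SD of 1.63, but in another order, at -1.01, -0.20, -1.84 and -1.91 in wild-type and 1.60, -1.86, 1.54 and -2.46 in transgenic lungs (0.94, SE 0.85, limma unadjusted p = 0.289). TG1 and TG3 were high together for Clca3, whereas TG3 was at -0.54 for Reg3g. The neighbours of Tff2 differed little, Tff1 by -0.14 (SE 0.13, limma unadjusted p = 0.322) and Tff3 by 0.12 (SE 0.10, limma unadjusted p = 0.243), and neither shared its high value in TG1. The partner of Agr2, Agr3, differed by 0.11 (SE 0.14), and the forkhead factor Foxa2, which restrains goblet cell differentiation, by 0.06 (SE 0.11). Foxa3, Retnlb and Gcnt3, which mark goblet cells under stimulation, were well above background on fewer than 4 arrays.

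Of the 7 Reg genes only Reg3g, Reg3a and Reg4 had enough signal to be tested, and only Reg3g varied widely. Reg3a differed by -0.07 (SE 0.13) and Reg4 by 0.14 (SE 0.14), while Reg3b, often induced together with Reg3g in infection, was well above background on 0 of 8 arrays. Among 22 enzymes that build mucin O-glycans, 21 were tested and 0 were called (13 higher, 8 lower, median 0.01), and the smallest p was that of Galnt4, at 0.19 (SE 0.10, limma unadjusted p = 0.0728). Of 25 genes that signal to mucous differentiation, 24 were tested, 6 higher and 18 lower, 0 called, with a median of only -0.02. Of all probes tested 16441 were higher and 16212 lower. The Il13 receptor chain Il13ra1 (-0.26, SE 0.11, limma unadjusted p = 0.0412) and the epithelial factor Klf5 (-0.35, SE 0.11, limma unadjusted p = 0.00919) were lower without overlap but under 1.5-fold. Each rested on 7 lungs, with Il13ra1 flagged in WT1 and Klf5 in TG3, and 1.97% of all probes did not overlap. The cytokines themselves, Il13 (-0.07, SE 0.13) and Il4 (-0.06, SE 0.12), differed by less than their SE. In 13 genes of protein folding and secretory stress 0 were called, and the smallest p belonged to Ern1, the sensor of the unfolded protein response, at -0.28 (SE 0.10, limma unadjusted p = 0.016), while Dnajb9, flagged in WT2, WT4, TG3 and TG4, was at -0.51 from 2 lungs per genotype (SE 0.19, limma unadjusted p = 0.0275, exact permutation p = 0.333). In 15 tested genes of type 2 airway inflammation 0 were called, 7 higher and 8 lower.

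Several epithelial defence genes had a spread between lungs like that of Reg3g. Of 24 tested, 14 were higher and 10 lower, and 2 were called, both lower in transgenic lungs (0.104% of all probes were called lower). The list was chosen with earlier results of these data known, so these shares are a description and no test. Plunc, a secreted protein of large airway epithelium, was 0.81, -0.02, 1.52 and 0.21 in wild-type and -1.26, -0.52, 0.56 and -2.39 in transgenic lungs (-1.53, SE 0.53, limma unadjusted p = 0.0138, adjusted p = 1, exact permutation p = 0.0857). Its genotypes overlapped, and TG4 was lowest as for Reg3g but TG1 was low as well. Lyz1, a lysozyme, differed by -1.21 (SE 0.32, limma unadjusted p = 0.00451, adjusted p = 1, exact permutation p = 0.0667), with TG2 and TG3 flagged. Ltf differed by -1.04 (SE 0.59, limma unadjusted p = 0.103). The secretory component gene Pigr was 1.57 in TG1 and -0.48 in TG4, with the other lungs between -0.11 and 0.54 (0.12, SE 0.35, limma unadjusted p = 0.73). The neutrophil genes S100a8 and S100a9 were also highest in TG1, at 0.68 and 1.54, and low in TG4, at -3.61 and -3.19. Unlike for Reg3g, WT1 to WT3 were low as well. In WT1 to WT4 S100a8 was at -2.82, -2.73, -3.55 and -0.32, and S100a9 at -2.45, -3.34, -3.43 and 0.32. The part of S100a8 and S100a9 in the values of Reg3g was not tested.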

How the data were processed

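Lung RNA of 4 wild-type and 4 transgenic mice was measured on 8 two-color arrays, with the genotype taken from each sample's labels. What the authors deposited was scanner output of Agilent Feature Extraction (10.10.1.1 in the file headers, 11.0.1.1 in the submitters' processing notes), holding raw and processed intensities per spot, together with their matrix of log2 processed ratios, which gave the gene symbols. The 8 genes and all gene lists were chosen with earlier results of these data known.

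Values were computed with limma 3.58.1 (R 4.3.3, package data.table at 1.17.8) from the median intensities that the authors deposited. Background was corrected with normexp (offset 50, fitted on unflagged spots), control and flagged spots were dropped, each array's log2 ratios were loess-normalized (span 0.3, 4 iterations), and spots of a probe were averaged. A probe was tested when well above background in Cy5 on at least 4 arrays with at least 2 values per genotype, by limma's moderated test, two-sided, with Benjamini-Hochberg adjustment over 32653 probes. Single genes and correlations were also tested by exact two-sided permutation (40320 orders for a correlation). Called means over 1.5-fold with an unadjusted p under 0.05, the criterion of the methods. Of several probes of a gene the brightest is given first. The rule for named genes took the 8 genes, Scgb3a2, in each list the 3 genes with the smallest p and those called, the 5 most alike genes, and mucin, goblet cell and Reg genes. Every called list gene is named, but not each of the 3 with the smallest p, and a few others (Il13, Il4, Ltf, Pigr, S100a8, S100a9, Cyp2f2 and Scgb1a1) were chosen after their values were seen. Replicates are separate mice by their labels. Fits were tested on simulated data. Alternatives changed the background correction, signal, normalization, filter, variance model, test or block, or left out a lung. Promoters are those of RefSeq on GRCm38.p6, found for 5 of the 8 genes, and figures were drawn with Python and matplotlib. The number of arrays limits the precision.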

Additional observations from a re-analysis of the deposited data

How the results depend on the processing

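Across all 24 to 26 alternatives per gene the differences ranged from -0.58 to -0.11 for Muc1, -0.36 to 0.07 for Muc4, -0.21 to 0.19 for Muc5ac, -0.93 to -0.26 for Muc5b, -0.35 to 0.25 for Agr2, -1.71 to 0.08 for Reg3g, -0.88 to 0.21 for Tff2 and 0.03 to 0.26 for Spdef. Among these settings probes of the 8 genes were called only without TG1 (3 probes, those of Muc5b at -0.93, Reg3g at -1.71 and Tff2 at -0.88) and with array weights (1 probe, Muc5b at -0.65, unadjusted p = 0.0438 by limma), so leaving out a lung gave 0 to 3. Agr2 changed sign with processed signals (-0.07), the deposited matrix (-0.18, also by the methods' t-test), median centring (-0.12), the sample channel alone (-0.35), scaling after loess (-0.06), flagged spots kept (-0.17), array weights (-0.25) and without WT4 (-0.14). It had no value under 2 of the settings that leave out a lung, which left too few values, and otherwise lay between -0.14 and 0.15 there. Muc5ac changed sign with median centring (-0.06), the sample channel (-0.03), scaling (-0.02) and array weights (-0.09), and lay between -0.21 (without TG1) and 0.19 with a lung left out. Muc4, between -0.36 and 0.07 with a lung left out, changed sign without WT3 (0.07), TG2 (0.03) or TG4 (0.01), and Reg3g (0.08) and Tff2 (0.21) without TG4. The cause was not tested.

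Counts of called probes, 41 higher and 34 lower, were 116 and 105 with an offset of 0, 187 and 184 with processed signals, 181 and 179 on the deposited matrix, 66 and 64 with the replicate block, 16 and 11 by the methods' t-test and 268 and 165 by that test on the matrix. Higher calls were 10 with normexp on all spots, 26 with array weights and 86 with the slide as a block, and lower calls 76 with median centring and 54 with the sample channel. With a lung left out they were 20 to 104 and 27 to 89. The labels' replicate numbers did not pair the lungs throughout (correlations of same-numbered lungs 0.32, 0.25, -0.08 and -0.21, and 2 of 4 lungs matched best with their own number). The numbers that matched, 1 and 2, were also slide partners, on slides 2 and 3. Slide partners had correlations of 0.30, 0.32, 0.25 and 0.07 on slides 1 to 4. With the replicate block Muc1 was -0.34 (unadjusted p = 0.0579 by limma) and none of the 8 genes was called.

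List medians moved by more than their spread for the folding genes (-0.01 to -0.05 with processed signals, 0.02 on the matrix and with scaling, -0.09 with median centring, -0.14 with the sample channel, -0.07 to 0.06 with a lung left out), stomach and gland markers (-0.02 with normexp on all spots), cartilage markers (-0.04 with processed signals and the matrix), upstream signals (-0.10) and basal markers (-0.11, both with median centring). The 4 pairs of correlated genes became 7 with normexp on all spots, 1 with the sample channel alone and 0 without the farthest 2 lungs, where 6 lungs remained.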
